A study of Mus musculus with 6 samples.

Results

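The genes described here are 10 that shape or reseal the surface membrane of the muscle fibre: Trim72, which codes for MG53, the caveolin genes Cav1, Cav2 and Cav3, the cavin genes Cavin1, Cavin2, Cavin3 and Cavin4, and the EHD genes Ehd1 and Ehd2. They were chosen by name, with earlier results of these data known, and their symbols were matched to the gene IDs of the count matrix. All 10 were found among its 57010 genes. The series measured poly(A) RNA of the gastrocnemius, a fast calf muscle, at 3 months of age in 6 untreated mice. The mutants were 3 animals of the congenic line B6.A-Dysfprmd/GeneJ (BLAJ), homozygous for Dysfprmd, 2 female (replicates 1 and 2) and 1 male (replicate 3). The controls were 3 male animals labelled wild type and C57BL/6. Dysfprmd is a retrotransposon insertion in an intron of Dysf that came from strain A/J, so the mutants also carry A/J sequence around it. Cav1, Cav2 and Cav3 lie on chromosome 6, as does Dysf, but how far the A/J sequence extends was not examined. Whether the controls were littermates is not given in the labels.

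MG53 is a TRIM-family ubiquitin ligase of striated muscle that binds phosphatidylserine and gathers vesicles at a membrane tear, where dysferlin, a calcium-binding ferlin, takes part in their fusion. Caveolae are small flask-shaped pits of the surface membrane. Caveolins form their wall, cavins coat it from the cytoplasm, and EHD2, a membrane-bending ATPase, rings the neck. In muscle fibres the caveolin is Cav3, which is also involved in forming T-tubules and in keeping dysferlin at the sarcolemma, and Cavin4 is the muscle cavin. Cavin1 was described as the anchor of MG53 at injury sites. Cav1, Cav2 and Cavin2 are abundant in endothelial cells and adipocytes, so a whole-muscle sample mixes the caveolae of several cell types.

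Promoter sequence is shown for 4 of the genes: Trim72, Cavin4 and Cav3, the genes of the set restricted to muscle, and Cavin2, which has the highest estimated fold change below as Cavin4 has the lowest. Each line is the 250 bases before the transcription start, 5′ to 3′ on the gene's own strand, from RefSeq on build GRCm38.p6. Capitals mark E-boxes, written CANNTG, the core bound by MyoD-family factors. The windows are chr7:128004128-128004377 (plus strand) for Trim72, chr4:48663264-48663513 (plus strand) for Cavin4, chr6:112459255-112459504 (plus strand) for Cav3 and chr1:51288876-51289125 (plus strand) for Cavin2.
Trim72: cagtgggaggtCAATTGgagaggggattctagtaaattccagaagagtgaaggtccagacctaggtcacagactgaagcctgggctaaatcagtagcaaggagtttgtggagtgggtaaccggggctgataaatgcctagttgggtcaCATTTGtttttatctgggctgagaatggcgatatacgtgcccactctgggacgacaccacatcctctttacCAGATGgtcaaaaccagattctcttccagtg
Cavin4: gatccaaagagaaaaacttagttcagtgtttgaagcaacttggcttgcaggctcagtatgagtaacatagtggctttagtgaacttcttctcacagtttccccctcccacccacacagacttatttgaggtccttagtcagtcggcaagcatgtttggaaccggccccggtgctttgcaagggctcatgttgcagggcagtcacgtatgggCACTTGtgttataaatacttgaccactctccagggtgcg
Cav3: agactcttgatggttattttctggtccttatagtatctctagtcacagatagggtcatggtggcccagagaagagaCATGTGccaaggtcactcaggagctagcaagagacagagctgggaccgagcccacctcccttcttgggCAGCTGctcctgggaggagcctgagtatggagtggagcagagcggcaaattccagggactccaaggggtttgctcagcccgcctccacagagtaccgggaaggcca
Cavin2: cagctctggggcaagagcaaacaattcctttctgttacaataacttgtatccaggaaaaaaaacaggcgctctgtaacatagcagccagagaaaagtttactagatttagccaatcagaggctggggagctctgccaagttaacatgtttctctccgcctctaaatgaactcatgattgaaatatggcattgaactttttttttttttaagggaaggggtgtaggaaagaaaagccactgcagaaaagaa

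The Trim72 window held 3 E-boxes, the nearest beginning 31 bases before the start (CAGATG). The Cav3 window held 2, at 174 bases (CATGTG) and 106 bases (CAGCTG) before the start. The Cavin4 window held 1, at 39 bases before the start (CACTTG), and also the letters TATAAA. The Cavin2 window held none. E-boxes are common: 66.2% of 32851 promoter windows of the same length held at least 1, and 31.8% held 2 or more. TATAAA, searched on both strands, stood in 12.4% of the windows. The MEF2 and CArG consensus letters were in none of these 4 windows, against 1.69% and 1.47% of all windows, and GGGCGG, in 32.7% of all, was also in none. RefSeq windows were matched for 8 of the 10 genes, the others being Cavin3 and Ehd1.

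Read pairs assigned to genes numbered 35042245 to 40230648 per library in the mutants and 40367595 to 43733641 in the controls. Values are CPM, read pairs scaled to library size with TMM factors, and tests are edgeR's quasi-likelihood test of mutants against controls over 15589 genes with Benjamini-Hochberg adjustment, called at an adjusted p below 0.05. Dysf, the mutated gene, stood at 15.8, 14.7 and 20.3 CPM in the mutants, against 72.3, 99.8 and 145 CPM in the controls, which gave -2.64 as log2 fold change (SE 0.28, edgeR adjusted p = 0.0249). The Dysf estimate stayed between -2.86 and -2.36 on the log2 scale in all 16 alternative analyses. Its edgeR adjusted p was above 0.05 in 5 of them. These include sex as a covariate and males only (-2.38 in each), where the group difference rests on 1 mutant, the male replicate 3. The others gave 0.228, 0.178 and 0.0637 without mutant replicates 1, 2 and 3 (-2.60, -2.55 and -2.80). The libraries labelled C57BL/6 held Ifi202b at 1.02 to 7.69 CPM and the class II gene H2-Ea-ps at 2.37 to 3.44 CPM, which C57BL/6 mice do not express, while the mutant libraries held 0 and 1 counts of them in all. Nnt, partly deleted in the substrain C57BL/6J, was near 0 in both groups, at 0.185 to 0.407 CPM in mutants and 0.102 to 0.136 CPM in controls. These genes disagree over the control label, and strain and genotype cannot be told apart in any difference below. Sex is also uneven between the groups.

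None of the 10 genes was called, with edgeR adjusted p between 0.756 and 0.996, where 0.199% of all genes tested were called, 0.0128% higher and 0.186% lower. At an unadjusted p below 0.05 there were also 0 of the 10, against 6.94% of all genes, and DESeq2 and limma-voom called 0 as well. Estimates were split evenly, 5 above and 5 below 0. The median log2 fold change was 0.006 over the 10 genes and -0.0015 over all genes tested, and the median size regardless of direction was 0.125 and 0.183. No gene had every mutant library on one side of every control, where 5.97% of all genes lay wholly higher in mutants and 6.09% wholly lower. In this fit, which has no sex term, the 95% interval of the fold change lay within 2-fold either way for 9 of the 10 genes. The exception was Cav3, and 63.4% of all genes lay within that bound. With sex as a covariate the log2 estimates moved from 0.14 to 0.58 for Ehd2, 0.11 to 0.49 for Cavin3 and -0.34 to -0.06 for Cavin4. All controls are male, so the group difference in that fit sets mutant replicate 3, the only male mutant, against the controls. No interval is given for that fit, so the bound holds only without the sex term.

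**Figure D1:**
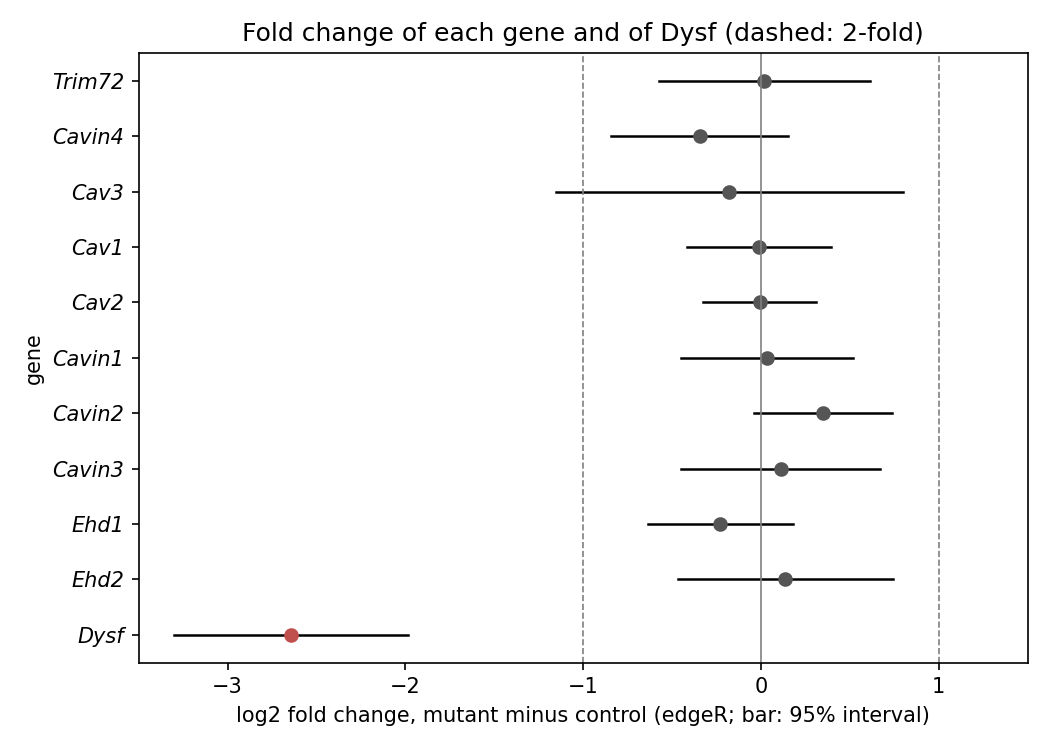
Log2 fold change of mutants over controls (edgeR) for the 10 genes and Dysf, with the 95% interval as a bar and dashed lines at a 2-fold change. All 10 intervals include 0 and only that of Cav3, from -1.16 to 0.80, passes a dashed line, while Dysf lies at -2.64.

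Trim72 (ENSMUSG00000042828) stood at 298, 206 and 299 CPM in mutant replicates 1, 2 and 3, against 251, 193 and 348 CPM in control replicates 1, 2 and 3. The groups overlapped, with the lowest and the highest of the 6 libraries both among the controls. The means were 268 ± 53.4 CPM in mutants and 264 ± 78.3 CPM in controls (SD, n = 3 each), and the log2 fold change was 0.02 (SE 0.25, 95% interval -0.58 to 0.61, edgeR adjusted p = 0.995). MG53 transcript was therefore estimated at 1.01-fold the control level, with 0.671-fold to 1.53-fold inside the interval, in muscle whose dysferlin transcript was at 0.16-fold. The estimate of Trim72 lay between -0.16 and 0.26 when single libraries were left out, below 0 without mutant replicates 1 or 3 or control replicates 1 or 2.

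Cav3 (ENSMUSG00000062694), the caveolin of the fibre, stood at 42.6, 37.4 and 80.0 CPM in the mutants, against 45.2, 41.7 and 94.0 CPM in the controls. In each group 1 library, replicate 3, lay about 2-fold above the others: 2.00 times their mean in mutants and 2.16 times in controls. The groups overlapped, and the log2 fold change of -0.18 (SE 0.41, 95% interval -1.16 to 0.80, edgeR adjusted p = 0.965) was the least precise of the set. Its sign was not fixed by the data: the estimate was -0.59 without mutant replicate 3, 0.29 without control replicate 3, 0.02 without mutant replicate 2, and 0.41 when sex was a covariate.

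Cavin4 (ENSMUSG00000028348), which recruits signalling proteins to muscle caveolae, had the lowest estimate of the set. It stood at 154, 157 and 213 CPM in the mutants, against 186, 201 and 279 CPM in the controls. Mutant replicates 1 and 2 lay below all controls and mutant replicate 3 above control replicates 1 and 2. The log2 fold change was -0.34 (SE 0.21, 95% interval -0.84 to 0.15, edgeR adjusted p = 0.823). The estimate was below 0 in all 16 alternative analyses, from -0.51 without mutant replicate 3 to -0.05 in males only, and was -0.06 with sex as a covariate.

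Among the caveolins of non-muscle cells, Cav1 (ENSMUSG00000007655), which builds caveolae in endothelium and fat, stood at 138, 144 and 177 CPM in the mutants, against 144, 135 and 184 CPM in the controls. The values nearly coincide between the groups, and the log2 fold change was -0.01 (SE 0.17, 95% interval -0.41 to 0.40, edgeR adjusted p = 0.996). Cav2 (ENSMUSG00000000058), which needs Cav1 to reach the surface, stood at 34.3, 32.6 and 38.5 CPM in the mutants, against 35.3, 31.3 and 39.2 CPM in the controls. Its log2 fold change was also -0.01 and had the narrowest interval of the set (SE 0.14, -0.32 to 0.31, edgeR adjusted p = 0.996).

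Cavin1 (ENSMUSG00000004044), the cavin required for caveolae in all tissues, stood at 142, 121 and 165 CPM in the mutants, against 136, 109 and 173 CPM in the controls, and the mutant values lay within the range of the controls. Its log2 fold change was 0.04 (SE 0.21, edgeR adjusted p = 0.988), with a 95% interval of -0.45 to 0.52. Cavin2 (ENSMUSG00000045954), a phosphatidylserine-binding cavin, had the highest estimate and the smallest p. It stood at 70.3, 73.9 and 90.9 CPM in the mutants, against 58.1, 54.3 and 72.3 CPM in the controls. A single pair broke the separation, mutant replicate 1 lying just below control replicate 3. Cavin2 had a log2 fold change of 0.35 (SE 0.16, 95% interval -0.04 to 0.73, unadjusted p = 0.0706, edgeR adjusted p = 0.756). Its estimate was above 0 in all 16 alternative analyses, between 0.23 and 0.56, with adjusted p of at least 0.616. Cavin3 (ENSMUSG00000037060), a cavin that binds protein kinase C delta, was the least abundant, at 7.38, 7.52 and 11.3 CPM in the mutants, against 6.99, 7.30 and 10.02 CPM in the controls. The counts behind Cavin3 were 273 to 446 read pairs a library in mutants and 280 to 394 in controls, and its log2 fold change was 0.11 (SE 0.24, edgeR adjusted p = 0.960).

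Ehd1 (ENSMUSG00000024772), which drives recycling from endosomes and acts in myoblast fusion together with ferlins, stood at 37.7, 40.9 and 42.8 CPM in the mutants, against 59.3, 39.8 and 42.9 CPM in the controls. Control replicate 1 was alone in being high, and the other 5 libraries lay between 37.7 and 42.9 CPM. The log2 fold change of Ehd1 was -0.23 (SE 0.17, 95% interval -0.63 to 0.18, edgeR adjusted p = 0.857) and -0.04 without control replicate 1. Ehd2 (ENSMUSG00000074364), the ATPase of the caveolar neck, stood at 65.0, 61.2 and 104 CPM in the mutants, against 63.5, 57 and 88.6 CPM in the controls. Replicate 3 was again the high library of each group, and the log2 fold change was 0.14 (SE 0.26, 95% interval -0.47 to 0.74, edgeR adjusted p = 0.954).

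**Figure D2:**
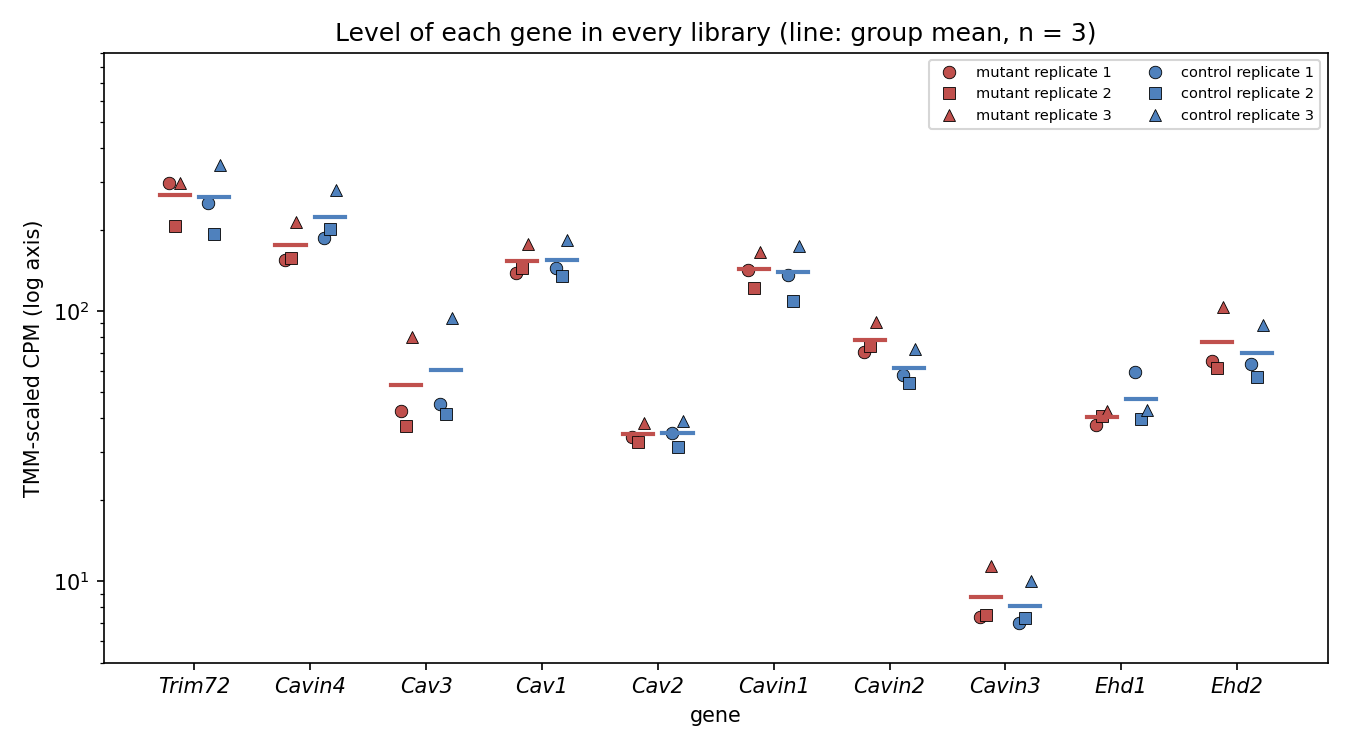
TMM-scaled CPM (log axis) of the 10 genes in every library, mutants in red left of controls in blue, with a line at each group mean (n = 3) and a marker shape for each replicate number. The triangles of replicate 3 are highest or tied with the highest in both groups for every gene except Ehd1, where control replicate 1 at 59.3 CPM is highest.

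Within each group the animals differed in a pattern that most of the 10 genes had in common. In mutants replicate 3 was the highest library for 10 of 10 genes, and in controls for 9 of 10, Ehd1 being the exception. Both held for 9 of 10 genes, against 15.5% of all genes tested, and for 8 of 10 with RLE, upper quartile or unscaled library sizes and with strand-matched counts, alternatives chosen after seeing the data. In Trim72 mutant replicate 1 was level with replicate 3. The excess of replicate 3 over the mean of the other libraries of its group was largest in Cav3, at 2.00-fold in mutants and 2.16-fold in controls. Next came Ehd2 at 1.65-fold in mutants, where Trim72 was at 1.18-fold, and Trim72 at 1.57-fold in controls, where Ehd2 was at 1.47-fold. Cavin3 was at 1.52-fold in mutants and 1.402-fold in controls, and Cav2 at 1.15-fold and 1.18-fold. The genes are not independent of each other. The labels give control replicate 3 and mutant replicate 3 the same number and male sex, and control replicates 1 and 2 are also male. What else these animals may share was not tested.

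**Figure D3:**
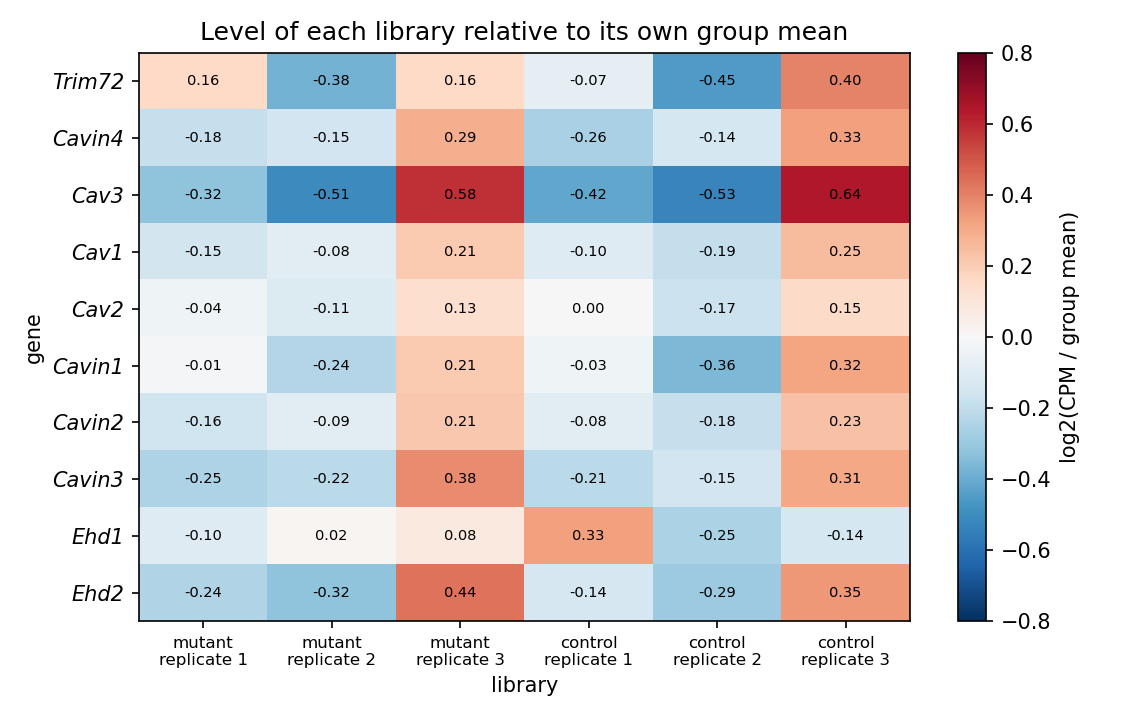
Log2 ratio of each library's CPM to the mean of its own group, for the 10 genes (rows) in 3 mutant and 3 control libraries (columns). The columns of both replicates 3 are red for nearly all genes, reaching 0.58 and 0.64 for Cav3, and the row of Ehd1 departs from this with 0.33 in control replicate 1.

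Of the marker lists, those of muscle fibres and of fibroblasts had their highest sum in replicate 3 of both groups, and their part in the pattern was not tested. Of the 4 partner lists described below, only the caveolar neck and EHD partners did so too, at 1405 CPM in mutants and 1529 CPM in controls. Genes highest in replicate 3 of both groups were 2 of 11 in that list. They were 4 of 9 for T-tubule formation, 4 of 8 for MG53 partners, with Dysf among them, and 4 of 12 for caveolin-bound signalling. The 12 fibre markers, which set the identity of the tissue, summed to 146700 to 178900 CPM in mutants and 136300 to 185900 CPM in controls. Of the 12, 5 were highest in both replicates 3 (Acta1, Casq1, Ckm, Myh4 and Pvalb). Others went the other way: Myh1, Myh2, Myh7 and Mb were lowest in control replicate 3, at 1010, 824, 79.1 and 409 CPM. Myh1 and Myh2 were nonetheless highest in mutant replicate 3. The 10 fibroblast and fibro-adipogenic markers summed to 7980 CPM in mutant replicate 3 against 2369 and 1897 CPM in the other mutants, and 6614 CPM in control replicate 3 against 1828 and 2504 CPM in the other controls. That excess lay in 3 collagen genes, Col1a1, Col1a2 and Col3a1, with 6409 CPM in mutant replicate 3 against 685 and 450 CPM in the other mutants, and 4868 CPM in control replicate 3 against 366 and 888 CPM in the other controls. The remaining 7 markers, a division made after the values were seen, summed to 1685, 1448 and 1571 CPM in mutants and 1462, 1616 and 1747 CPM in controls. Of these 7, Dcn, Dpt and Pdgfra were highest in both replicates 3, while Gsn was lowest in mutant replicate 3.

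The following lists did not follow replicate 3 in both groups. Endothelial markers summed to 447 to 601 CPM in mutants and 421 to 488 CPM in controls, highest in mutant replicate 3 but lowest in control replicate 3. Smooth muscle and pericyte markers (938 to 1156 CPM in mutants, 878 to 932 CPM in controls) were likewise highest in mutant replicate 3 and lowest in control replicate 3. Adipocyte markers summed to 515 to 695 CPM in mutants and 299 to 640 CPM in controls, highest in mutant replicate 2 and control replicate 1. Macrophage markers, at 133 to 221 CPM in mutants and 115 to 177 CPM in controls, were highest in mutant replicate 1 and control replicate 3. Levels in whole muscle cannot separate fewer cells of a type from less RNA per cell.

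The same marker lists stand beside Cavin2, which endothelial cells and adipocytes express. Of 12 endothelial markers tested 11 were estimated higher in mutants (median log2 fold change 0.24), and of 10 adipocyte markers 10 (median 0.73). For smooth muscle and pericyte markers it was 9 of 10 (median 0.22). Macrophage and Schwann cell markers had 8 of 10 (median 0.17) and 6 of 8 (median 0.16) estimated higher, and fibroblast markers 6 of 10 (median 0.08). Among all genes tested 49.8% were estimated higher, every marker gene passed the filter on low counts, and none of these marker genes was called by edgeR over all genes. Markers of a cell type are not independent of each other. The sums of the endothelial and adipocyte markers overlapped between the groups, while those of smooth muscle and pericyte markers did not. The adipocyte sum was 640 CPM in control replicate 1, above the 515 CPM of mutant replicate 1. The endothelial gene with the smallest p was Vwf, the von Willebrand factor, at 46.2, 51.9 and 56.8 CPM in mutants, against 26.4, 41.3 and 27.2 CPM in controls (edgeR adjusted p = 0.530), and the adipocyte gene with the smallest p was Fabp4, the fatty acid carrier, at 166, 194 and 242 CPM in mutants, against 151, 126 and 160 CPM in controls (edgeR adjusted p = 0.677). The genes next in p, given by their log2 fold change, were Egfl7 (0.28) and Pecam1 (0.26) of endothelium and Adipoq (1.15) and Plin1 (0.96) of adipocytes. In the other lists the smallest p belonged to Rgs5 (0.39), Tagln (1.04) and Notch3 (0.215) of pericytes and smooth muscle, Pi16 (0.62), Pdgfra (-0.14) and Dcn (-0.11) of fibroblasts, and Lyz2 (0.60), C1qb (0.34) and Adgre1 (0.33) of macrophages. For Schwann cells they included S100b (0.61) and Prx (0.42), and for fibres the slow and fast IIa myosins Myh7 (0.67) and Myh2 (0.62) and the calcium release channel Ryr1 (-0.12). Of all these, Tagln was scarcely detected, at 0.31 to 0.44 CPM in mutants and 0.11 to 0.30 CPM in controls. The part of these cells in the Cavin2 estimate was not tested, and Cav1, with the same cell types, had a log2 fold change of -0.01.

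Levels of different genes were compared per kilobase of merged exons (GENCODE M21, lengths only). Trim72 was the most abundant, at 120 ± 23.9 CPM per kb in mutants and 118 ± 35.1 in controls, and Cavin4 came next at 85.1 ± 16.3 and 108 ± 24.4 CPM per kb (SD, n = 3 each). Cav3, at 46.1 ± 20.1 CPM per kb in mutants and 52.1 ± 25.3 in controls, Cav1, at 44.4 ± 6.01 and 44.7 ± 7.58, and Cavin1, at 39.8 ± 6.15 and 38.9 ± 9.07, were within each other's spread. Below them Cavin2 was at 25.7 ± 3.61 CPM per kb in mutants and 20.2 ± 3.11 in controls. Ehd2 at 15.0 ± 4.60 and 13.6 ± 3.27, Ehd1 at 10.9 ± 0.693 and 12.8 ± 2.83, and Cav2 at 10.5 ± 0.908 and 10.6 ± 1.19 CPM per kb again overlapped in spread. Cavin3 was lowest at 5.27 ± 1.36 CPM per kb in mutants and 4.88 ± 1.00 in controls. The order of the 10 genes was identical in both groups.

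That order depended in the middle on how strands were counted. The deposited matrix ignores strand, although the library was directional, and drops read pairs that fall on overlapping genes. Counting the matching strand raised Cavin3 by 67.9% to 91.4% over the 6 libraries, Cavin1 by 24.6% to 34.1% and Trim72 by 25.5% to 29.4%, and moved each of the other 7 genes by less than 1%. In the GENCODE M21 annotation an opposite-strand gene shares 617 exonic bases with Trim72 (Gm15533) and 374 with Cavin3 (Gm45667), while Cavin1 has no such neighbour there. Reads on the opposite strand were few, 0.125% to 0.786% of a gene's reads in mutants and 0.172% to 0.830% in controls. On strand-matched counts, scaled to library totals without TMM factors, Trim72 was at 145 ± 26.1 CPM per kb in mutants and 139 ± 38.5 in controls. Cavin1 was at 49.4 ± 5.39 and 46.0 ± 9.34, and Cavin3 at 8.51 ± 1.74 and 7.99 ± 1.19. The scale differs from that of the levels above: Cavin4 went from 85.1 to 80.1 CPM per kb in mutants. Cavin1 then stood above Cav3 and Cav1 in mutants and between them in controls, in place of below both. The fold changes hardly moved, with Trim72 at 0.03, Cavin1 at 0.07 and Cavin3 at 0.06 on the log2 scale.

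Ratios between the genes within a library do not depend on library scaling, and 8 were compared by an exact two-sided permutation test, which with 3 against 3 cannot give p below 0.1. Cavin4 over Cavin1, the muscle cavin against the general one, was 1.09, 1.30 and 1.29 in mutants, against 1.36, 1.85 and 1.61 in controls, as a ratio of counts. All mutants lay below all controls, by 0.39 on the log2 scale (exact permutation p = 0.1, adjusted over the 8 ratios 0.4), though mutant replicate 2 and control replicate 1 were close. Left-out libraries gave differences from -0.50 to -0.28, and strand-matched counts, which raise Cavin1, gave -0.42. Trim72 over Dysf was 18.9, 14.1 and 14.7 in mutants, against 3.48, 1.93 and 2.40 in controls. The log2 difference was 2.64 (exact permutation p = 0.1, adjusted 0.4), with the fold change of Dysf at -2.64 and that of Trim72 at 0.02 on the same scale. Dysf, the mutated gene, was lower in every mutant, so this ratio is no test of Trim72, though it counts among the 8 adjusted. Cav2 over Cav1 was nearly constant, at 0.218 to 0.248 in mutants and 0.214 to 0.246 in controls. Cavin4, Trim72 and Cav1 over Cav3, Ehd1 over Ehd2 and Cavin3 over Cavin2 overlapped between the groups, with exact permutation p of 0.2 to 0.6.

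**Figure D4:**
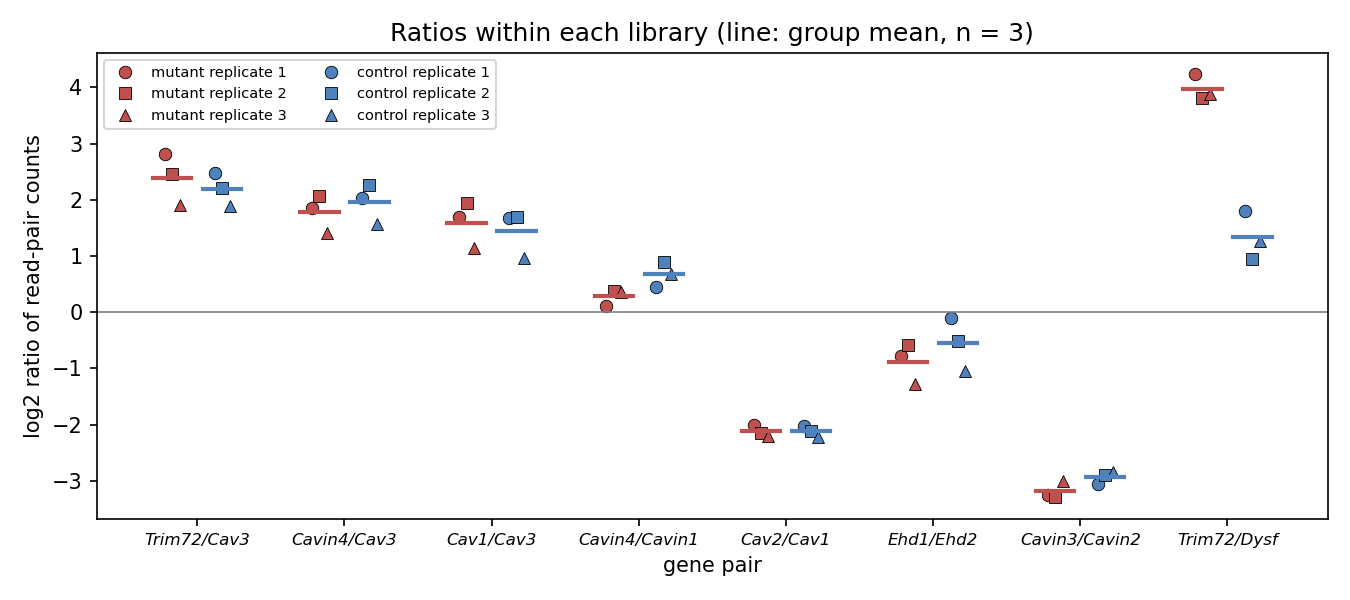
Log2 ratio of read-pair counts of 8 gene pairs in each library, mutants in red left of controls in blue, with a line at each group mean (n = 3). The groups separate in Cavin4/Cavin1, with means of 0.29 in mutants and 0.67 in controls. They also separate in Trim72/Dysf, with means of 3.98 and 1.34, where Dysf is the mutated gene.

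Partners of these proteins were described from 4 lists. Of 11 genes of the caveolar neck and EHD partners, 0 were called, 3 estimated higher and 8 lower (median log2 fold change -0.11). The smallest p was that of Pacsin3, the muscle F-BAR protein that bends membrane at caveolae, at 273, 242 and 283 CPM in mutants, against 421, 304 and 383 CPM in controls. All its mutant libraries lay below all controls, and its estimate was -0.48 on the log2 scale (SE 0.17, edgeR adjusted p = 0.655), where 6.09% of all genes separated in that direction. Micall1, a scaffold of recycling endosomes, stood at 6.46 to 26.8 CPM in controls and was next, before Ehbp1, an EHD-binding protein, both with overlapping groups. The paralogues Ehd4, at 68.4 ± 14.8 CPM in mutants and 62.6 ± 8.31 in controls, and Ehd3, at 7.67 ± 1.87 and 8.45 ± 1.86, were not called either.

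Of 9 genes of T-tubule formation 0 were called, with 5 estimated higher and 4 lower (median 0.07). Bin1, the membrane-tubulating protein of the T-tubule, stood at 668, 637 and 712 CPM in mutants, against 629, 879 and 963 CPM in controls (edgeR adjusted p = 0.834). Stac3, an adaptor of the T-tubule calcium channel, was at 310 ± 24.1 CPM in mutants and 273 ± 29.5 in controls (edgeR adjusted p = 0.867), and Jph1, which ties T-tubules to the sarcoplasmic reticulum, at 432 ± 25.4 and 474 ± 70.7 CPM (edgeR adjusted p = 0.919, SD, n = 3 each). Of 8 MG53 partners and substrates Dysf alone was called, lower, with 4 estimated higher and 4 lower (median -0.001). Irs1, the insulin receptor substrate that MG53 ubiquitinates, stood at 40.4, 66.8 and 53.8 CPM in mutants, against 53.5, 55.3 and 120 CPM in controls (edgeR adjusted p = 0.839), with control replicate 3 alone high. Ripk1, a kinase of cell death signalling, was at 6.34 ± 0.732 CPM in mutants and 5.52 ± 0.305 in controls. Of 12 genes of caveolin-bound signalling and adhesion 0 were called, with 4 estimated higher and 8 lower (median -0.08). Egfr, the epidermal growth factor receptor, stood at 7.27, 10.1 and 17.3 CPM in mutants, against 19.9, 18.4 and 21.7 CPM in controls (log2 fold change -0.79, SE 0.30, edgeR adjusted p = 0.677). The raft protein Flot1 stood at 99.4, 83.8 and 62.1 CPM in mutants, against 63.3, 63.2 and 57.5 CPM in controls (edgeR adjusted p = 0.735), and integrin Itgb1 at 217, 217 and 294 CPM in mutants, against 236, 427 and 331 CPM in controls (edgeR adjusted p = 0.799).

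The genes whose log2 CPM followed a member most closely over the 6 libraries were taken from 7592 genes with a mean of at least 10 CPM. For Trim72 they were Stx2 (Pearson r = 0.979), Cpq (0.977) and Clic1 (0.963), of 38 genes above 0.9. For Cav3 they were Tceal5 (0.995), Hhatl (0.991) and Gm15459 (0.988), of 134 above 0.9. Hhatl stood at 113, 103 and 163 CPM in mutants, against 114, 105 and 200 CPM in controls, with the high replicates 3 of Cav3. Cav1 was followed by Ssr2 (0.981), Gm15459 (0.972) and Rrbp1 (0.970), of 96 above 0.9. Gm15459 stood at 103 CPM in mutant replicate 3 and 104 CPM in control replicate 3, against 3.94 to 8.59 CPM in the other libraries. Ehd1 was followed by Ifi203 (0.980), Rbm19 (0.978) and Ccdc9b (0.976), of 73 above 0.9. Each was highest in control replicate 1, the high library of Ehd1. Ifi203 stood at 32.3 CPM in control replicate 1 against 8.47 to 13.8 CPM in the other controls and 9.38 to 12.8 CPM in mutants. These likenesses rest on 6 libraries and many candidates, and are descriptions.

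The authors' deposited table gave log2 fold changes of 0.35 for Cavin2, -0.35 for Cavin4 and 0.01 for Trim72, with the sign running from control to mutant as its value for Dysf, -2.65, shows. Its lowest adjusted p among the 10 genes was 0.849, for Cavin2.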

How the data were processed

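RNA from 6 gastrocnemius muscles was sequenced as paired 61 bp reads from directional poly(A) libraries, per the labels' protocols. The authors deposited raw counts of read pairs per gene, as a matrix and as 1 file per library with an unstranded and both strand counts. The submitters' processing notes name STAR 2.7.11b, DESeq2 1.50.2 and GRCm39. No annotation release is named in the sources used here. The matrix equalled the unstranded column in all 57010 genes. The authors' deposited DESeq2 table holds log2 fold changes, p-values, Wald scores and mean normalized signal per gene, and was used for the genes named. Entries naming no gene made up 18.5% to 22.3% of pairs and were left out.

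Counts were tested with edgeR 4.0.16 in R 4.3.3: filterByExpr (minimum count 10), TMM, robust quasi-likelihood test, no covariate. All 10 genes passed the filter. At this depth 3 counts equal 0.0686 to 0.0856 CPM, counting error only. The closest pair of libraries differed with a chi-square per degree of freedom of 54.6, so none agree within sampling noise. Symbols matched 52029 IDs. The test was checked on simulated counts. Alternatives were RLE, upper quartile, DESeq2 1.42.0, limma-voom (limma 3.58.1), sex as a covariate, other filters, the replicate block, males only, strand-matched counts and each library left out.

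The genes and lists were chosen with earlier results of these data known. Named are the 10 genes, Dysf, from each list the called members and the 3 with the smallest p (Dysf counting under both), and the 3 closest genes for Trim72, Cav3, Cav1 and Ehd1 by Pearson r of log2(CPM + 0.5). Ehd3, Ehd4, Ifi202b, H2-Ea-ps, Nnt and the markers named for replicate 3 were chosen outside this rule, the last after their values were seen. A gene that the rule names is not reported here.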

Additional observations from a re-analysis of the deposited data

How the results depend on the processing

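None of the 10 genes was called in any of 16 alternative analyses, the smallest adjusted p being 0.592 (Cavin4 without control replicate 1). An unadjusted p below 0.05 occurred 4 times: Cavin2 with sex as a covariate, with the replicate block and without control replicate 3, and Cavin4 with the block. Cavin2, Cavin4 and Ehd1 kept their sign in all 16. Among 160 values 24 changed sign, the cause not being tested. Cav1 and Cav2 were at 0.0207 and 0.0237 with upper quartile scaling. Cav1, Cav2 and Cav3 were at 0.20, 0.13 and 0.41 with sex as a covariate and in males only. In both of those fits the group difference rests on 1 mutant, replicate 3, because all controls and no other mutants are male. With single libraries left out the log2 fold changes ran from -0.16 to 0.26 for Trim72, -0.13 to 0.13 for Cav1, -0.0861 to 0.0701 for Cav2, -0.59 to 0.29 for Cav3, -0.12 to 0.22 for Cavin1, -0.12 to 0.28 for Cavin3 and -0.14 to 0.34 for Ehd2. The ratio differences that changed sign, 6 of 56, ran from -0.0109 to 0.44 for Trim72/Cav3, -0.0539 to 0.0479 for Cav2/Cav1, -0.0836 to 0.38 for Cav1/Cav3 and -0.37 to 0.00362 for Cavin4/Cav3.

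Over all genes edgeR called 31, against 201 by DESeq2, 79 with no low-count filter, 11 with the replicate block, and 0 with sex as a covariate (882 at an unadjusted p below 0.05) and in males only (594). With single libraries left out it called 6 (without mutant replicate 2) to 49 (without control replicate 2). Deviations of same-numbered libraries correlated at 0.227, -0.0572 and 0.22, and those of differently numbered libraries at -0.270 to 0.164. Whether the numbers pair the animals cannot be told from these values, and the block is given only here. Changes of any size inside a gene's 95% interval are compatible with its data.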
